A study of Mus musculus with 4 samples.

Results

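The genes described here are 8 genes of antigen presentation by the major histocompatibility complex (MHC), out of 27998 genes in the table: B2m, H2-K1, H2-D1, H2-Aa, H2-Ab1, H2-Eb1, Cd74 and Ciita. They were chosen by name, and each was found as 1 row of the table. Their levels were read in cells of the adult mouse mammary gland, sorted by flow cytometry and captured in droplets with 10x Genomics v2 reagents. Each transcript is counted once, near its 3′ end, by a molecular barcode (unique molecular identifier, UMI). There were 4 libraries from C57BL/B6 mice: Zeb1 MSKO at 8 weeks, Zeb1 MSKO at 9 weeks, control at 8 weeks and control at 9 weeks. The labels do not expand MSKO, and they name neither the Cre driver, nor the deleted part of Zeb1, nor the allele or Cre carried by the controls. They do not say how many mice gave each library, so a p-value over libraries speaks of library to library spread, and part of that spread may be technical.

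By GENCODE vM21, which uses the assembly of the authors' mm10 build, 5 of the 8 genes lie on chromosome 17 in the H2 complex, and all 8 are protein coding. H2-K1 (ENSMUSG00000061232) spans chr17:33996017-34000347 on the minus strand, and H2-D1 (ENSMUSG00000073411) spans chr17:35262730-35267499 on the plus strand. Between them lie H2-Ab1 (ENSMUSG00000073421, chr17:34257689-34269419, plus), H2-Aa (ENSMUSG00000036594, chr17:34282744-34287823, minus) and H2-Eb1 (ENSMUSG00000060586, chr17:34305867-34316674, plus). B2m (ENSMUSG00000060802) spans chr2:122147686-122153083, Cd74 (ENSMUSG00000024610) chr18:60803848-60812652 and Ciita (ENSMUSG00000022504) chr16:10480059-10528418, each on the plus strand. Reads that fit several class I genes equally well could be lost or misassigned, so overlap was counted over the last 400 bases of 1 transcript per gene. Of 351 stretches of 50 bases each, 2 of H2-K1 and 23 of H2-D1 also occurred in another gene's transcript, and none of those of the other 6 genes did.

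MHC class I molecules present peptides made inside the cell to CD8 T cells, and nearly all nucleated cells carry them. H2-K1 and H2-D1 encode the class I heavy chains of this strain, and B2m encodes beta-2 microglobulin, the light chain they share. MHC class II molecules present peptides from taken-up protein to CD4 T cells and belong mainly to B cells, dendritic cells and macrophages, although epithelial and endothelial cells can make them under interferon gamma. H2-Aa and H2-Ab1 encode the alpha and beta chains of I-A, and H2-Eb1 the beta chain of I-E. C57BL/6 mice lack a functional I-E alpha chain, so I-E does not reach the surface in that strain. Cd74 encodes the invariant chain, which fills the class II groove until a peptide is loaded and also serves as a surface receptor for the cytokine MIF. Ciita encodes the class II transactivator, the co-activator that class II genes and Cd74 depend on.

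Promoters are shown because class II genes and class I genes had different patterns over the cell classes described below. RefSeq entries (GRCm38.p6) of 250 bases before and 50 bases after the annotated start were found for 5 of the 8 genes, and 4 are printed 5′ to 3′ on the gene's strand. Capitals mark matches, on either strand, to CTGATTGG (the Y box of class II promoters), ATTGG (its core, which overlaps it), TGACG (a core of CREB-type sites), GGGATTCCC (an NF-kappa B type site), TTTCACTTC (part of the interferon response element of H2 class I promoters) and GAAACTGAA (part of an interferon response element). The regions are chr17:34287774-34288073 (minus) for H2-Aa, chr17:34305617-34305916 (plus) for H2-Eb1, chr2:122147437-122147736 (plus) for B2m and chr17:34000298-34000597 (minus) for H2-K1, for which 1 of 2 entries is shown.
H2-Aa: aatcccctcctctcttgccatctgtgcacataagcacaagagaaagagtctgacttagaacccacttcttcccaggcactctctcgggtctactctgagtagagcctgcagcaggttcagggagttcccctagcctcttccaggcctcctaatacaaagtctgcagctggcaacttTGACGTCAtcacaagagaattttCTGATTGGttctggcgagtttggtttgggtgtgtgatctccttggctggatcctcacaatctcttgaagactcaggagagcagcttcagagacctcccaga
H2-Eb1: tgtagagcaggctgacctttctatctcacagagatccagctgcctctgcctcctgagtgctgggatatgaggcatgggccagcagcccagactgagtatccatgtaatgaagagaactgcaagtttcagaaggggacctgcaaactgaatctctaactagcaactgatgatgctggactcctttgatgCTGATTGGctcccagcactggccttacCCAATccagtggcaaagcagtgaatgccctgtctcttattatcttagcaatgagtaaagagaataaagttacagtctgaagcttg
B2m: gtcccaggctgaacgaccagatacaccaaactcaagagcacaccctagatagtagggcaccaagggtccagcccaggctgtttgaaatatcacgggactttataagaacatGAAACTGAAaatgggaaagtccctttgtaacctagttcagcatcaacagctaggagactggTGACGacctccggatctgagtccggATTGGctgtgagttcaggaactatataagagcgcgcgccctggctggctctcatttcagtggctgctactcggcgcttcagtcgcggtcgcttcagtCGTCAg
H2-K1: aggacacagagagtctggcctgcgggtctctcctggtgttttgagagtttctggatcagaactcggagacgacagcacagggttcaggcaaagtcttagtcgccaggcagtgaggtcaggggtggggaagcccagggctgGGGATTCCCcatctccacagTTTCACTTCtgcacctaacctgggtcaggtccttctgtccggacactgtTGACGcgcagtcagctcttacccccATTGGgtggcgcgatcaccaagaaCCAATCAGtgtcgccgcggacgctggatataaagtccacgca
CTGATTGG began 51 bases before the start in H2-Aa and 62 bases before it in H2-Eb1. It was present in 4.1% of the 32851 RefSeq promoters searched, and H2-K1 and H2-D1 held it on the opposite strand. GGGATTCCC and TTTCACTTC were found in H2-K1 and H2-D1, and in 0.353% and 0.505% of all promoters. GAAACTGAA was found in B2m and in 0.627% of all promoters. ATTGG and TGACG were common, at 37.4% and 20.8% of promoters. These matches describe letters in the windows and say nothing of binding.

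The libraries held 9693 and 9774 barcodes (Zeb1 MSKO at 8 and 9 weeks) and 9790 and 7627 barcodes (control at 8 and 9 weeks), with 80853204 to 122122443 UMIs each. The median barcode held 6376 and 10529.5 UMIs in the Zeb1 MSKO libraries, against 9403 and 10214 UMIs in the control libraries. Between 95 and 151 barcodes were shared by any 2 libraries. Cells were assigned to classes by raw UMIs of marker genes that include none of the 8 genes. The gate gave 1522, 2859, 3511 and 2397 luminal progenitor cells (Zeb1 MSKO at 8 and 9 weeks, then control at 8 and 9 weeks), 1098, 3117, 2516 and 2237 hormone-sensing luminal cells and 1963, 1122, 1235 and 1375 basal cells. It asked for at least 3 UMIs of 4 of 8 epithelial genes, which leaves out many basal cells: 3253, 1685, 875 and 882 cells stayed ungated, and a broader gate with 2 of 8 genes brought the basal cells to 4292, 2288, 1707 and 2004. Leukocytes were rare, at 41, 16, 46 and 10 cells. The Zeb1 MSKO library at 8 weeks stood apart, with a Krt14 level, a basal keratin, of 129 CPM in hormone-sensing cells against 18.9 to 27.8 CPM in the other 3 libraries, and with 77 cells of hair follicle type that the others lacked. Zeb1 itself was at 0 to 1.17 CPM in the 3 epithelial classes and at 48.2 to 85.1 CPM in fibroblasts over the 4 libraries, and a 3′ count outside the deleted part would not check the deletion. Levels are in CPM, the usual library-scaled unit of count data, here scaled to the UMI total of the class in a library. In classes that were summed over cells, fewer expressing cells and less RNA per cell cannot be told apart, which is why values per cell are given further on.

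**Figure D1:**
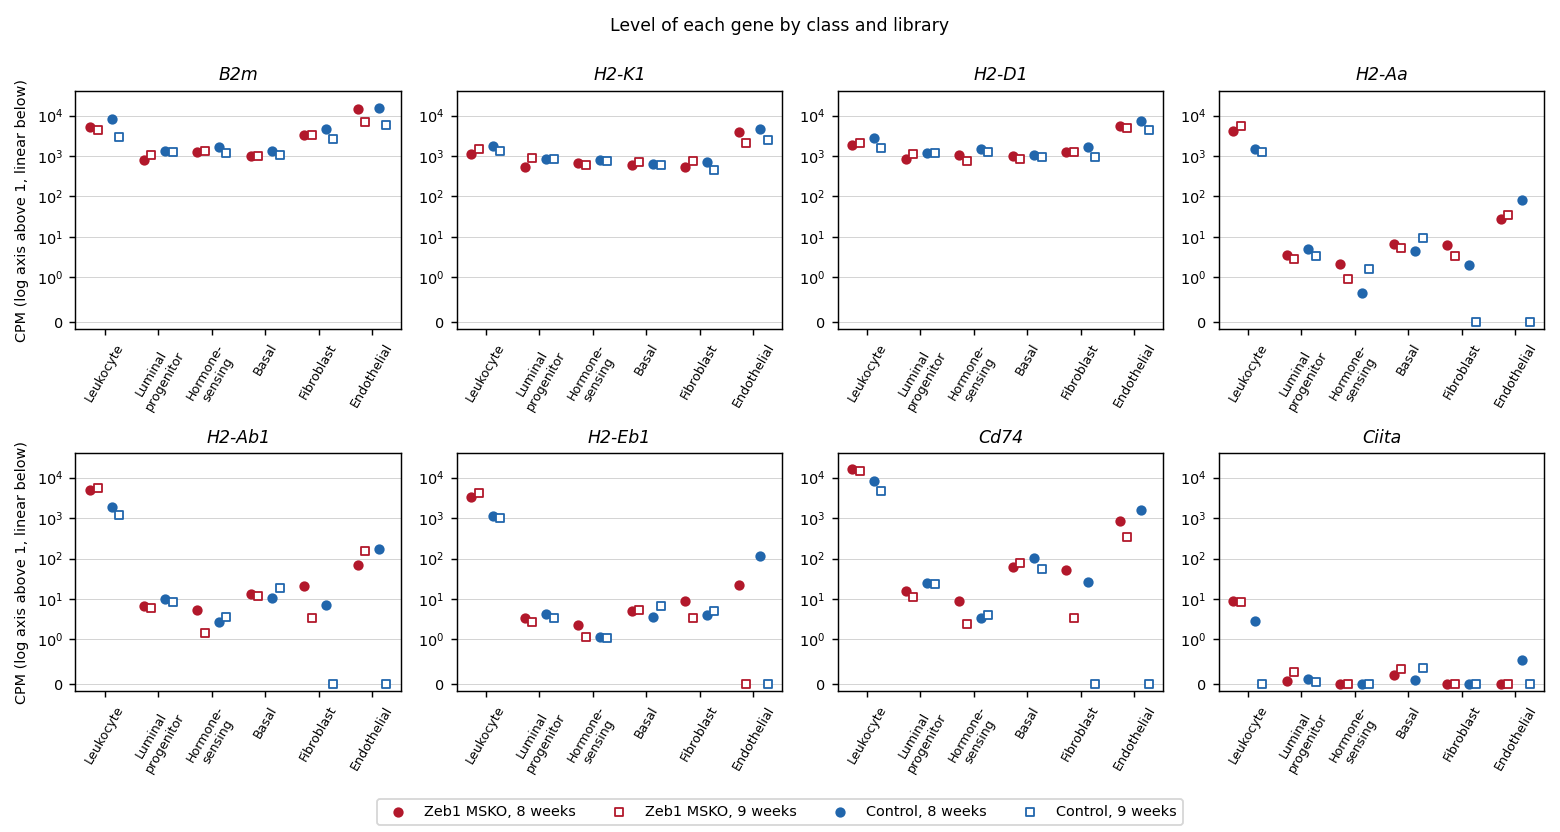
CPM of each of the 8 genes (vertical axis, logarithmic above 1 CPM and linear below) in 6 cell classes, with 1 point per library, filled circles for 8 weeks and open squares for 9 weeks. The class I genes lie between 538.7 and 1631 CPM in every epithelial class and library, while H2-Aa, H2-Ab1 and H2-Eb1 lie between 0.641 and 18.2 CPM there and at 1025 CPM or more in leukocytes.

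Class I genes were abundant in every class. In luminal progenitor cells, which line the ducts and give rise to milk-producing cells, B2m was at 776 and 1083 CPM in Zeb1 MSKO at 8 and 9 weeks, against 1333 and 1220 CPM in control. Hormone-sensing luminal cells, which carry the estrogen and progesterone receptors, had 1276 and 1301 CPM of B2m in Zeb1 MSKO, against 1631 and 1197 CPM in control. Basal cells, the contractile outer layer, had 974 and 981 CPM in Zeb1 MSKO, against 1318 and 1045 CPM in control. The 3 epithelial classes thus overlapped in B2m. H2-K1 was at 539 to 915 CPM and H2-D1 at 741 to 1525 CPM over the 12 epithelial sums. Outside the epithelium, endothelial cells reached 5798 to 15460 CPM of B2m, 2070 to 4606 CPM of H2-K1 and 4401 to 7298 CPM of H2-D1. The endothelial values at 9 weeks rest on 7 cells (Zeb1 MSKO) and 10 cells (control). Fibroblasts had 2603 to 4527 CPM of B2m, while their H2-K1, at 456 to 740 CPM, overlapped the epithelial range.

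Class II chains were low in the epithelium and graded between its classes. H2-Ab1, the most counted chain, was at 6.73 and 5.97 CPM in luminal progenitor cells of Zeb1 MSKO at 8 and 9 weeks, against 9.89 and 8.64 CPM in control. In hormone-sensing cells it was at 5.35 and 1.44 CPM in Zeb1 MSKO, against 2.65 and 3.55 CPM in control. In basal cells it was at 13.6 and 11.7 CPM in Zeb1 MSKO, against 10.4 and 18.2 CPM in control. The lowest basal library lay above the highest luminal progenitor library, and the lowest luminal progenitor library above the highest hormone-sensing one. Hormone-sensing cells also held more UMIs, with medians per cell of 14005 to 17109 UMIs, against 7792.5 to 8308 UMIs in luminal progenitor cells. CPM are scaled to the UMI total, and the part of this depth in the order was not tested. H2-Aa ran from 2.80 to 4.95 CPM in luminal progenitor, 0.641 to 2.09 CPM in hormone-sensing and 4.46 to 9.62 CPM in basal cells, and H2-Eb1 from 2.65 to 4.32, 1.11 to 2.27 and 3.59 to 6.72 CPM in the same classes. For both, the basal and luminal progenitor ranges overlapped, and the hormone-sensing range lay below them. Outside the epithelium, fibroblasts had 0 to 20.9 CPM of H2-Ab1, a range that took in all epithelial classes. Their H2-Ab1 at 9 weeks rested on 1 UMI in Zeb1 MSKO and 0 UMIs in control. Endothelial cells had 0 to 177 CPM of H2-Ab1.

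Cd74 followed the same order with wider steps. Luminal progenitor cells had 15.9 and 11.2 CPM of Cd74 in Zeb1 MSKO at 8 and 9 weeks, against 25.4 and 23.8 CPM in control. Hormone-sensing cells had 9.10 and 2.41 CPM in Zeb1 MSKO, against 3.41 and 3.92 CPM in control. Basal cells had 63.0 and 79.5 CPM in Zeb1 MSKO, against 106 and 55.1 CPM in control. No library of one epithelial class overlapped with another epithelial class. Fibroblasts had 0 to 51.2 CPM of Cd74, which overlapped both luminal classes. Endothelial cells had 833 and 333 CPM in Zeb1 MSKO at 8 and 9 weeks, against 1635 and 0 CPM in control. The highest hormone-sensing value came from the Zeb1 MSKO library at 8 weeks, where the 10 genes of the basal panel together were at 386 CPM in hormone-sensing cells, against 79.2 to 141 CPM in the other 3 libraries, and their part in the Cd74 level was not tested. With the broader basal gate the basal levels were 58.1 and 76.9 CPM in Zeb1 MSKO, against 100.5 and 53.5 CPM in control.

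The epithelial classes were compared with each other in 1 edgeR quasi-likelihood fit with the library as a block (n = 4 libraries), in which 7 of the 8 genes passed the filter on low counts. Ciita did not pass it. Of the 7, 2 were lower and none was higher in luminal progenitor than in basal cells. Of all 14148 genes tested there, 55.3% passed an adjusted p of 0.05, 28.7% of them lower and 26.6% higher, as shares of the genes tested. The 2 lower genes were Cd74 (log2 fold change -2.05, SE 0.35, edgeR adjusted p 0.000483) and H2-Ab1 (-0.78, SE 0.26, adjusted p 0.0256). The call for H2-Ab1 was lost without the library block (edgeR adjusted p 0.0838), with doublets kept (0.0747), without control at 9 weeks (0.178) and without Zeb1 MSKO at 9 weeks (0.0595). H2-Aa (-0.77, SE 0.31, edgeR adjusted p 0.0568) and H2-Eb1 (-0.61, SE 0.27, edgeR adjusted p 0.0767) missed the threshold and passed it under the stricter gate (0.00242 and 0.0127) and without control at 8 weeks (0.00846 and 0.039). In hormone-sensing over basal cells 69.6% of all genes tested were called, and 4 of the 7 genes were lower, beside 35.4% of all genes, and 1 was higher, beside 34.2%. The lower genes were Cd74 at -4.11 (SE 0.39), H2-Aa at -2.31 (SE 0.33), H2-Ab1 at -2.13 (SE 0.27) and H2-Eb1 at -1.90 (SE 0.28), with edgeR adjusted p values of 3.34e-06, 8.28e-05, 3.54e-05 and 0.000109 in that order. In luminal progenitor over hormone-sensing cells 57.5% of all genes tested were called, 27.8% of them higher as a share of all genes, and Cd74, H2-Aa, H2-Ab1 and H2-Eb1 were all higher. Cd74 was higher by 2.06 (SE 0.37), H2-Aa by 1.54 (SE 0.33), H2-Ab1 by 1.36 (SE 0.27) and H2-Eb1 by 1.29 (SE 0.28) on the log2 scale, with edgeR adjusted p values from 0.000626 to 0.0021.

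Class I differed less. B2m was the remaining call in both hormone-sensing comparisons, at 0.35 on the log2 scale over basal cells (SE 0.13, edgeR adjusted p 0.0334) and at -0.35 in luminal progenitor over hormone-sensing cells (SE 0.13, edgeR adjusted p 0.0408), where 29.7% of all genes were lower. The first call was lost without the library block (edgeR adjusted p 0.104), under the stricter gate (0.0694) and without any one of 3 libraries, the control at 8 weeks (0.0541) and both Zeb1 MSKO libraries (0.0574 at 8 and 0.127 at 9 weeks). The second was lost without the library block (0.21), with no filter on low counts (0.0644), with doublets kept (0.0598), under the broader gate (0.0555) and without the same 3 libraries (0.116, 0.226 and 0.0773). H2-K1 and H2-D1 passed the test in none of the 3 epithelial comparisons, with log2 fold changes between -0.09 and 0.28. Without 1 library each passed once, H2-K1 in luminal progenitor over basal cells without Zeb1 MSKO at 8 weeks (0.39, edgeR adjusted p 0.0326) and H2-D1 in hormone-sensing over basal cells without Zeb1 MSKO at 9 weeks (0.35, edgeR adjusted p 0.0406).

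Leukocytes stood far above the epithelium in class II. H2-Aa was at 4209 and 5506 CPM in leukocytes of Zeb1 MSKO at 8 and 9 weeks, against 1500 and 1274 CPM in control. H2-Ab1 was at 4945 and 5576 CPM in Zeb1 MSKO, against 1842 and 1216 CPM in control, and H2-Eb1 at 3323 and 4184 CPM, against 1131 and 1025 CPM. Cd74 was at 16810 and 14750 CPM in Zeb1 MSKO leukocytes, against 8283 and 4760 CPM in control leukocytes. Both Zeb1 MSKO libraries were thus higher than both control libraries for these 4 genes. The share of all genes that separate so in leukocytes was not computed, so the count is not a result about these genes. Few cells carried the chains, and in Zeb1 MSKO at 9 weeks 6 cells held 1765 of 1766 chain UMIs. Class II with Cd74 summed to 29650 ± 514 CPM in Zeb1 MSKO and 10520 ± 3168 CPM in control (SD, n = 2 each, two-sided exact permutation p 0.33, the smallest possible). The difference was not tested by a fit, since the 9 week libraries hold 16 (Zeb1 MSKO) and 10 (control) leukocytes, and the make-up of the class differed. Myeloid cells numbered 6 and 5 in Zeb1 MSKO at 8 and 9 weeks, against 9 and 2 in control. B cells numbered 18 and 0, against 24 and 2, and T or NK cells 17 and 9, against 12 and 6.

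Class II genes differed between leukocyte types. T or NK cells had no UMI of H2-Aa, H2-Ab1 or H2-Eb1 in any library, in 17 and 9 cells of Zeb1 MSKO and 12 and 6 cells of control. Their depth allows up to 43.0 to 70.8 CPM for a count of 0, at 3 counts per library. Their Cd74 rested on 2 and 0 UMIs in Zeb1 MSKO, against 1 and 5 UMIs in control. B cells had 14640 CPM of Cd74 in the Zeb1 MSKO library at 8 weeks (18 cells), against 10350 and 16380 CPM in control at 8 and 9 weeks (24 and 2 cells), and none were gated in the Zeb1 MSKO library at 9 weeks. Myeloid cells had 44240 and 33010 CPM of Cd74 in Zeb1 MSKO, against 7122 and 5023 CPM in control. No cell met the dendritic definition, which asked for more dendritic genes on than genes of any other type. The dendritic panel was still at 503 and 856 CPM in leukocytes of Zeb1 MSKO, against 144 and 1084 CPM in control. Of its 8 genes, 0 and 1 had no UMI in Zeb1 MSKO, against 4 and 5 in control. Cells with dendritic genes may thus be counted under another type, and their part in the myeloid Cd74 levels was not tested. B2m was more even, at 2501 to 5785 CPM in T or NK cells, 3527 to 9400 CPM in B cells and 3604 to 7845 CPM in myeloid cells.

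The test of leukocytes against each epithelial class used the 2 libraries with at least 20 leukocytes, those at 8 weeks (n = 2 libraries, 1 per genotype). All 7 genes that passed the filter were higher in leukocytes than in luminal progenitor, hormone-sensing and basal cells, where 8.26%, 10.7% and 9.08% of the 13625 genes tested were higher, 9.74%, 12.9% and 11.7% were lower, and 18.0%, 23.6% and 20.8% were called in all. H2-Aa was higher by 9.00 (SE 0.55), 10.95 (SE 0.60) and 8.78 (SE 0.55) on the log2 scale over these classes in the same order, and Cd74 by 9.06 (SE 0.66), 10.88 (SE 0.70) and 7.03 (SE 0.60). For H2-Ab1 the differences were 8.35, 9.58 and 7.93, and for H2-Eb1 8.82, 10.18 and 8.76, with edgeR adjusted p values of at most 5.53e-05 for these 4 genes. B2m was higher by 2.60, 2.096 and 2.45, H2-D1 by 1.12, 0.75 and 1.10 and H2-K1 by 0.97, 0.87 and 1.07, with edgeR adjusted p values of at most 0.0177. The median over all genes tested was -0.36, -0.39 and -0.34 with TMM scaling and -0.05, -0.06 and -0.13 in DESeq2, and the members' calls were the same in both. Without the library block, H2-K1 over luminal progenitor and hormone-sensing cells and H2-D1 over hormone-sensing cells were no longer called (edgeR adjusted p 0.0591, 0.0613 and 0.0969).

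Ciita was at the limit of detection. It gave 1 and 7 UMIs in luminal progenitor cells of Zeb1 MSKO at 8 and 9 weeks, against 4 and 1 UMIs in control. Hormone-sensing cells had 0 UMIs in all 4 libraries, where 3 counts correspond to 0.0555 to 0.184 CPM. Basal cells had 3 and 4 UMIs in Zeb1 MSKO, against 1 and 5 UMIs in control. Leukocytes had 2 and 1 UMIs in Zeb1 MSKO, against 1 and 0 UMIs in control, which comes to 9.14 and 8.64 CPM, against 2.82 and 0 CPM. These counts are too few for a comparison between classes or genotypes.

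Cd74 and the class II chains did not keep one proportion. Luminal progenitor cells held 1.16 and 0.983 Cd74 UMIs per chain UMI in Zeb1 MSKO at 8 and 9 weeks, against 1.33 and 1.56 in control, and hormone-sensing cells 0.937 and 0.677, against 0.770 and 0.622. Basal cells held 2.48 and 3.58 in Zeb1 MSKO, against 5.75 and 1.59 in control. Leukocytes held 1.35 and 0.966 in Zeb1 MSKO, against 1.85 and 1.35 in control, and endothelial cells at 8 weeks held 6.92 in Zeb1 MSKO, against 4.35 in control. Basal cells were above luminal progenitor cells in this ratio in all 4 libraries, but in the control library at 9 weeks the counting intervals of the 2 classes overlapped. The split between the chains differed too: H2-Ab1 made up 39.0% of chain UMIs in leukocytes, summed over libraries, against 52.7% in luminal progenitor, 52.6% in hormone-sensing and 53.5% in basal cells. Over libraries the share ran from 34.6% to 41.2% in leukocytes, and from 40.6% to 59.9% in the 12 epithelial sums, so that the ranges met in 1 library, the hormone-sensing cells of Zeb1 MSKO at 9 weeks.

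**Figure D2:**
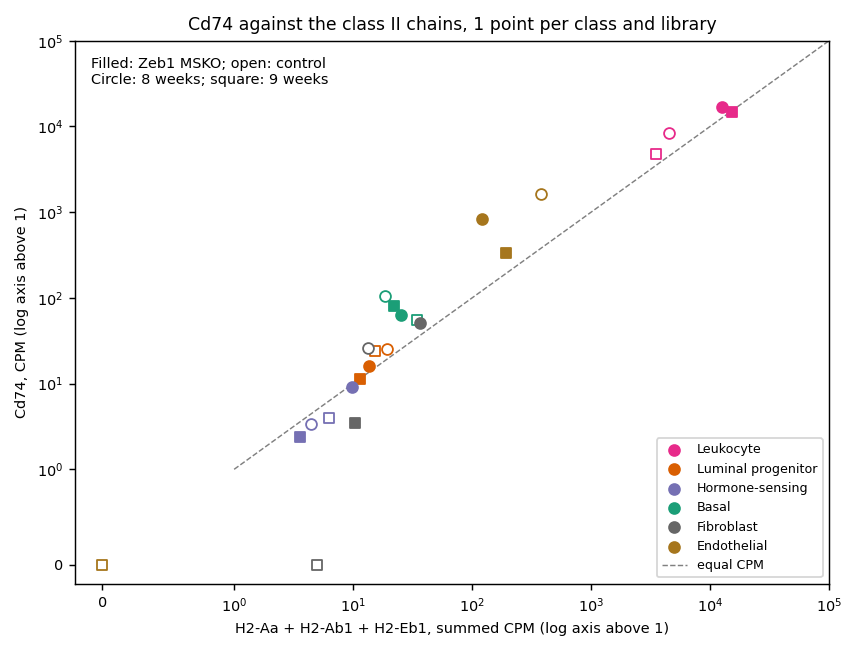
Cd74 CPM (vertical) against the summed CPM of H2-Aa, H2-Ab1 and H2-Eb1 (horizontal), both axes logarithmic above 1, with 1 point per class and library and the dashed line at equal CPM. Basal and 8 week endothelial points lie above the line, hormone-sensing points on or below it, and leukocyte points at the upper right.

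Leukocyte genes were measured in the same epithelial sums. The 8 genes of the leukocyte panel together were at 3.33 and 1.36 CPM in luminal progenitor cells of Zeb1 MSKO at 8 and 9 weeks, against 2.49 and 2.12 CPM in control, at 2.03 and 1.18 CPM, against 1.81 and 0.633 CPM, in hormone-sensing cells, and at 2.96 and 2.36 CPM, against 1.84 and 1.34 CPM, in basal cells. In leukocytes the panel was at 4886 and 6120 CPM, against 4174 and 6605 CPM. All 8 genes had a UMI in each epithelial class, with 0 to 3 of them at 0 in a library, and Ptprc, the pan-leukocyte marker CD45, gave 0 to 6 UMIs per class and library. Per leukocyte panel UMI there were 4.09 to 8.39 chain UMIs in luminal progenitor, 2.45 to 9.95 in hormone-sensing and 8.59 to 25.7 in basal cells, against 0.532 to 2.55 in leukocytes. Within leukocytes it was 7.95 and 6.86 in myeloid cells of Zeb1 MSKO, against 1.84 and 2.03 in control, and 1.16 to 1.77 in B cells, while T or NK cells had no chain UMI. The myeloid values of Zeb1 MSKO overlapped with the epithelial ones, and the panel genes are also those the gate selects on. The endothelial panel, whose cells also carry Cd74, was at 14.9 and 4.81 CPM in basal cells of Zeb1 MSKO, against 6.74 and 4.55 CPM in control, and at 4709 to 8403 CPM in endothelial cells; its part in basal Cd74 was not tested.

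Counts per cell showed how Cd74 was spread. After each cell was thinned to 2000 UMIs, which every gated cell exceeded, a Cd74 UMI was present in 2.56% and 1.68% of luminal progenitor cells in Zeb1 MSKO at 8 and 9 weeks, against 1.85% and 1.96% in control. In hormone-sensing cells the shares were 2.37% and 0.513% in Zeb1 MSKO, against 0.755% and 0.492% in control. In basal cells they were 7.74% and 11.9% in Zeb1 MSKO, against 13.04% and 5.38% in control, and the Wilson 95% interval of each basal library lay above those of both luminal classes in the same library. Before thinning, 19.8% and 31.6% of basal cells in Zeb1 MSKO, against 34.6% and 16.8% in control, had a Cd74 UMI. T or NK cells, which should lack class II, gave thinned Cd74 shares of 0 of 17 and 0 of 9 cells in Zeb1 MSKO, against 1 of 12 and 1 of 6 cells in control, too few cells to set a background share (median depths 3899.5 to 5792 UMIs, against 6183 to 9045 UMIs in basal cells). A chain UMI was present in 2.17% and 1.71% of luminal progenitor cells in Zeb1 MSKO, against 1.85% and 2.38% in control, in 1.91% and 0.930%, against 0.914% and 0.894%, of hormone-sensing cells and in 3.21% and 3.21%, against 2.91% and 3.13%, of basal cells. In basal cells these shares were below the Cd74 shares in all 4 libraries, which did not hold in all libraries for luminal progenitor or hormone-sensing cells. B2m was found at this depth in 71.0% to 83.4% of luminal progenitor, 83.9% to 88.8% of hormone-sensing and 77.5% to 83.1% of basal cells. Intervals and floors cover counting error only.

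**Figure D3:**
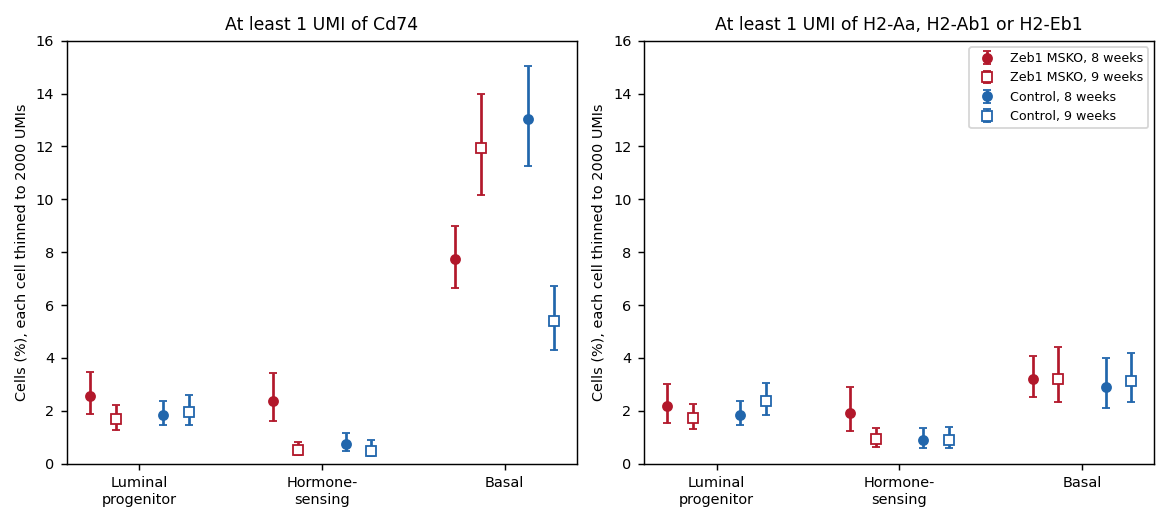
Percent of cells with at least 1 UMI of Cd74 (left) or of a class II chain (right) after thinning each cell to 2000 UMIs, by epithelial class and library, with Wilson 95% intervals. The basal Cd74 shares run from 5.38% to 13.04% and the luminal ones from 0.492% to 2.56%, while the chain shares lie between 0.894% and 3.21%.

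Cells with 5 or more Cd74 UMIs held 27.4% and 18.2% of the Cd74 UMIs of luminal progenitor cells in Zeb1 MSKO at 8 and 9 weeks, against 66.7% and 74.6% in control. Among basal cells, 34 and 50 cells of Zeb1 MSKO, against 75 and 21 cells of control, had 5 or more Cd74 UMIs, and 39.0% and 41.3% of the UMIs, against 50.2% and 53.1%, were in them. Of these cells, 31 and 47 in Zeb1 MSKO, against 73 and 20 in control, had none of the 8 leukocyte genes on, where the gate admits at most 3. Many of them had no chain UMI either, 19 of 34 and 23 of 50 in Zeb1 MSKO, against 46 of 75 and 3 of 21 in control. In luminal progenitor cells, 5 and 6 cells of Zeb1 MSKO held 60 of 219 and 54 of 297 Cd74 UMIs, against 24 and 18 cells of control that held 566 of 849 and 402 of 539. A single control cell at 8 weeks held 218 Cd74 UMIs. In the luminal progenitor cells with fewer than 5 Cd74 UMIs the level was 11.6 and 9.21 CPM in Zeb1 MSKO, against 8.56 and 6.10 CPM in control. The order of the genotypes there was opposite to that of the class total. The cut was made on Cd74 itself and took out a larger part of the control UMIs, so this order is only a description. The thinned Cd74 shares given above overlapped between the genotypes. Of these high luminal progenitor cells, 4 of 5 and 3 of 6 in Zeb1 MSKO, against 20 of 24 and 15 of 18 in control, had no leukocyte gene on.

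**Figure D4:**
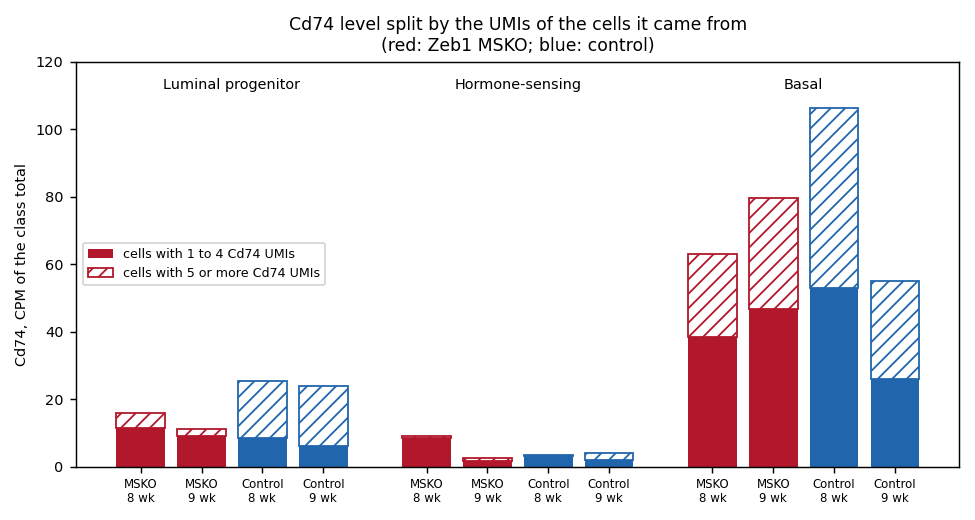
Cd74 CPM of the class total (bar height, axis from 0) in 3 epithelial classes and 4 libraries, split into UMIs from cells with 1 to 4 Cd74 UMIs (solid) and from cells with 5 or more (hatched). In control luminal progenitor cells most of the bar is hatched (566 of 849 and 402 of 539 UMIs), while in Zeb1 MSKO most is solid (60 of 219 and 54 of 297 UMIs hatched).

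Zeb1 MSKO was compared with control in each class with enough cells, 2 libraries against 2. None of the 8 genes was called in any class: 0 of 7 tested in luminal progenitor, hormone-sensing and basal cells and 0 of 5 in fibroblasts, beside 0.0% of 12703, 0.0% of 12991 and 0.0% of 12198 genes and 0.0226% of 8858 genes at an edgeR adjusted p under 0.05. At an unadjusted p under 0.05 edgeR had 175, 458, 74 and 244 genes in these classes (1.38%, 3.53%, 0.607% and 2.75%), and DESeq2 called 7, 29, 1 and 2 genes. In luminal progenitor cells all 7 log2 fold changes were below 0, from -0.92 for Cd74 to -0.24 for H2-K1. Cd74 there was lower in Zeb1 MSKO at both ages, with a log2 fold change of -0.92 (SE 0.28, unadjusted edgeR p 0.0149, edgeR adjusted p 1.0). H2-Ab1 was at -0.60 (SE 0.29) and B2m at -0.50 (SE 0.29), each with an edgeR adjusted p of 1.0. When the 8 week Zeb1 MSKO library was left out, these values became -1.14 for Cd74, -0.25 for B2m and 0.12 for H2-K1, so that H2-K1 changed sign. The chain UMIs of this class were unevenly spread too. In control at 8 weeks 13 cells held 361 of 639 chain UMIs, and a single cell held 200. In luminal progenitor cells with fewer than 5 chain UMIs the chains were at 10.8 and 8.66 CPM in Zeb1 MSKO, against 8.37 and 10.9 CPM in control. In basal cells the 7 values ran from -0.34 to -0.03 and in hormone-sensing cells from -0.56 for H2-D1 to 0.66 for Cd74, 3 of them below 0. The SE of the class II genes in hormone-sensing cells was 0.52 to 0.69, on 22 to 148 UMIs per library and gene, and the 2 Zeb1 MSKO libraries differed, with Cd74 at 9.10 and 2.41 CPM. The difference of the genotype effect between epithelial classes passed the test for none of the 7 genes in any of the 3 pairs, beside 0.0% of 14148 genes each (360, 616 and 727 genes, or 2.54%, 4.35% and 5.14%, at an unadjusted edgeR p under 0.05 for luminal progenitor minus basal, hormone-sensing minus basal and hormone-sensing minus luminal progenitor). Each age has 1 library per genotype, so age, preparation and sequencing run cannot be told apart.

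**Figure D5:**
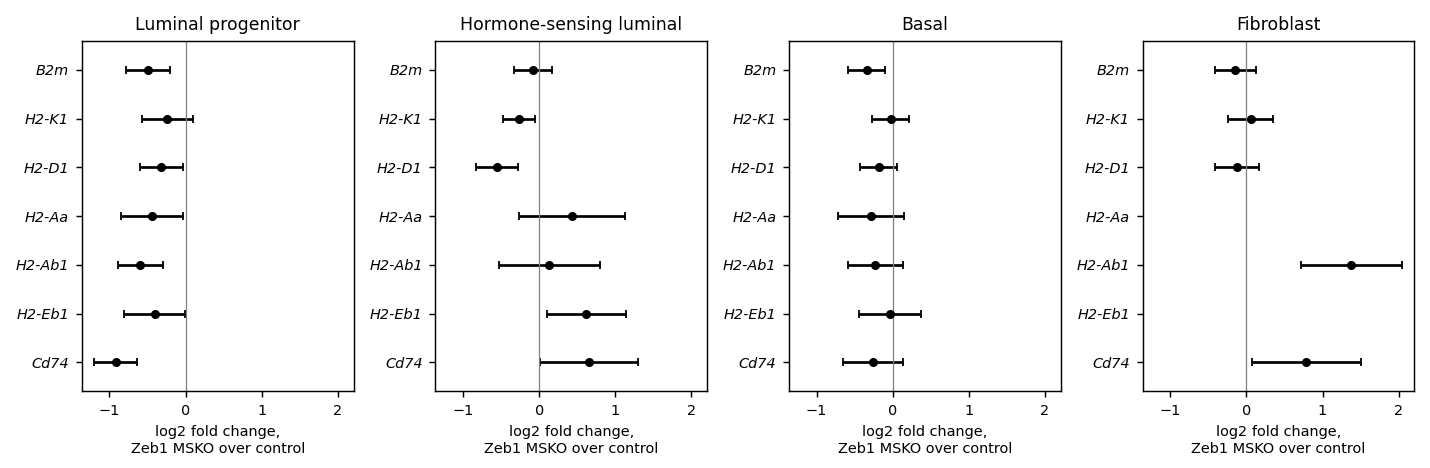
Log2 fold change, Zeb1 MSKO over control, of each tested gene in 4 classes (edgeR estimate with its SE, 2 libraries per genotype). No value passed the test. All 7 luminal progenitor values lie below 0, from -0.92 to -0.24, and so do all 7 basal values, from -0.34 to -0.03. The median over all genes tested was -0.003 in luminal progenitor and 0.012 in basal cells. H2-Aa and H2-Eb1 were not tested in fibroblasts.

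The sums gave the same picture. Class I (B2m, H2-K1 and H2-D1 together) averaged 2637 ± 687 CPM in Zeb1 MSKO and 3299 ± 64.3 CPM in control in luminal progenitor cells (SD, n = 2 each). It averaged 2827 ± 271 CPM in Zeb1 MSKO and 3574 ± 519 CPM in control in hormone-sensing cells, and 2521 ± 28.2 and 2790 ± 290 CPM in basal cells. In all 3 classes both Zeb1 MSKO libraries were below both control libraries, which gives a two-sided exact permutation p of 0.33, the smallest that 2 against 2 libraries allow. The 3 classes come from the same libraries, so they are not independent observations. The share of all genes that separate so in all 3 classes was not computed. Class II with Cd74 averaged 26.1 ± 4.82 CPM in Zeb1 MSKO and 41.8 ± 3.96 CPM in control in luminal progenitor cells, again without overlap (exact permutation p 0.33). In hormone-sensing cells it averaged 12.4 ± 9.08 CPM in Zeb1 MSKO and 9.02 ± 1.68 CPM in control (exact permutation p 1), and in basal cells 95.02 ± 9.45 and 107 ± 24.8 CPM (exact permutation p 0.667). The share of cells with a class II UMI did not follow the luminal progenitor level, at 3.74% ± 0.840 in Zeb1 MSKO and 3.52% ± 0.339 in control (exact permutation p 1).

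The rest of the presentation pathway was read from 6 lists, given without the 8 genes. Among class I chains, 4 of 8 tested genes were higher and 1 lower in luminal progenitor than in basal cells, and 6 of 8 were higher in hormone-sensing than in basal cells (median log2 fold changes 0.48 and 0.78, against 0.00 and -0.01 over all genes). Over all genes tested, 26.6% were higher and 28.7% lower in the first of these comparisons, and 34.2% higher and 35.4% lower in the second, and the counts of the lists below stand beside the same shares. H2-Q7, a non-classical class I chain, was higher by 1.88 (SE 0.21, edgeR adjusted p 1.97e-05) and 1.45 (SE 0.21, edgeR adjusted p 7.53e-05) in these comparisons. H2-Q6, H2-T22, H2-Q4 and H2-T23 have 63.8%, 63.2%, 38.5% and 36.2% of their 3′ stretches in common with other genes, so their counts are uncertain. Of the 14 genes that prepare class I peptides, 7 were higher and 3 lower in hormone-sensing than in basal cells, with a median of 0.38. Psmb9, an immunoproteasome subunit, was at 50.2 and 61.8 CPM in hormone-sensing cells of Zeb1 MSKO, against 85.6 and 84.0 CPM in control, and at 6.71 and 28.1 CPM, against 9.19 and 10.5 CPM, in basal cells. It was higher in hormone-sensing than in basal cells by 2.56 (SE 0.26, edgeR adjusted p 6.49e-06), Psmb8, another subunit, by 1.95 (SE 0.25) and Tap2, a subunit of the peptide transporter, by 1.98 (SE 0.29), with edgeR adjusted p values of 3.48e-05 and 0.000104. Nlrc5, the class I transactivator, went the other way, at -2.00 (SE 0.32, edgeR adjusted p 0.000197), at levels of 0.482 to 3.97 CPM over both classes. In luminal progenitor over basal cells 3 of 14 of these genes were higher and 3 lower.

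Class II loading genes did not share the order of the chains. H2-DMa, which helps to exchange the Cd74 remnant for peptide, was at 8.11 and 7.81 CPM in hormone-sensing cells of Zeb1 MSKO, against 11.3 and 14.9 CPM in control, and at 3.51 to 4.26 CPM in basal cells (log2 fold change 1.40, SE 0.21, edgeR adjusted p 0.000107). In luminal progenitor cells it was at 1.66 to 2.34 CPM, with a log2 fold change over basal cells of -1.08 (SE 0.22, edgeR adjusted p 0.00164). H2-DMb1, its partner, was also higher in hormone-sensing than in basal cells, by 0.81 (SE 0.19, edgeR adjusted p 0.00275). Of the 6 genes of the list tested, 2 were lower in luminal progenitor than in basal cells. In hormone-sensing over basal cells, 2 were higher and 1 lower. H2-Oa, described at the end, is among the 6 genes but was not judged in the first count. It passed the filter on low counts only through luminal progenitor cells. Among the general class II regulators 5 of 7 were higher and 1 lower in luminal progenitor than in basal cells, and 2 were higher and 2 lower in hormone-sensing than in basal cells. Among the lower ones was Rfxap, a subunit of the RFX factor (log2 fold change -1.77, SE 0.16, edgeR adjusted p 2.02e-06). Of the 8 interferon gamma pathway genes, 2 were higher and 5 lower in luminal progenitor than in basal cells, with Socs1, an inhibitor of the pathway, at -3.56 (SE 0.27, edgeR adjusted p 1.22e-06). In hormone-sensing over basal cells 1 of them was higher and 3 were lower. Of the 5 co-stimulation genes only 2 were tested, and 1 was lower and 0 were higher in each luminal class than in basal cells. H2-DMb2, a beta chain of the same exchange factor, was at 260.5 and 112.4 CPM in leukocytes of Zeb1 MSKO, against 164 and 220 CPM in control, and at 0.0185 to 0.330 CPM in the epithelium. None of the tested genes of the 6 lists was called between genotypes in any class; among those averaging 10 CPM or more, Irf1, an interferon-induced factor, had the largest change in hormone-sensing cells at -1.04 (SE 0.29, unadjusted edgeR p 0.0153, edgeR adjusted p 1.0).

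Over the 12 epithelial sums, the genes outside these lists whose log2(CPM + 1) was most like that of Cd74, among 5016 genes averaging 20 CPM or more, were Emid1 (Pearson r 0.98), Bcam (0.98), Pmp22 (0.98), Fhl2 (0.97) and Ehd2 (0.97). Those most like B2m were Plbd2 (0.78), Ost4 (0.77), Pithd1 (0.77), Coro1c (0.74) and Mgst3 (0.74). The 12 sums share 4 libraries and fall into 3 classes, so r can follow the class order. For B2m, whose classes overlapped, r can also follow the spread between libraries. The parts of class and library in r were not separated, and r is a description with no test.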

How the data were processed

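UMI counts per gene and barcode, deposited by the authors as raw counts in 1 matrix of 4 libraries, were made with Cell Ranger 2.1.0 on mm10, per the submitters' processing notes; the sources used here do not say if depth was equalised on aggregation. Barcode suffixes name the library, per the labels. The genes and lists were chosen with earlier results of these data known.

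Kept cells had 500 genes or more and a mitochondrial share of up to 10%, and the top 8% of nearest-neighbour doublet scores in each library were removed (8861 and 8864 Zeb1 MSKO cells and 8918 and 6954 control cells stayed). A cell had a lineage with 4 of 8 marker genes on and at most 3 of any other. Epithelial cells took the highest of 3 panel scores with a margin of 0.5, and leukocytes the panel with most genes on. The deposited counts were summed per class and library and tested with edgeR 4.0.16 (quasi-likelihood, TMM, default filter, Benjamini-Hochberg over all genes tested, threshold 0.05); DESeq2 1.42.0 was an alternative. Classes needed 20 cells in each library used. CPM are rounded to 4 significant digits, and the floor is 3 counts per library. Shares have Wilson 95% intervals. The fit was tested on simulated data. Named genes were the 8, list genes that passed, and the 3 list genes with the largest changes at 10 CPM or more.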

Additional observations from a re-analysis of the deposited data

Results flagged for a closer look

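Each age has 1 library per genotype, so the change at 8 weeks and the change at 9 weeks can be set side by side. The 8 genes were looked through in luminal progenitor, hormone-sensing and basal cells and fibroblasts, which had at least 20 cells in every library. There, 12 gene and class pairs moved in opposite directions at the 2 ages, each with counting intervals that left out 0. The share of all genes that do so was not computed, so the count is not a result about these genes. Such intervals take UMIs as independent and can be too narrow. Cells with 5 or more Cd74 UMIs held 39.0% to 53.1% of the basal Cd74 UMIs. Those with 5 or more chain UMIs held 28.4% to 59.2% of the basal chain UMIs. The difference between ages was not tested, since it has no replicate. Values are log2 ratios of CPM, Zeb1 MSKO over control, at 8 weeks and then at 9 weeks.

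In basal cells H2-K1 was at -0.12 and 0.19, H2-Aa at 0.57 and -0.88, H2-Ab1 at 0.38 and -0.64, and Cd74 at -0.76 and 0.53. Cd74 and the I-A chains thus had opposite signs within each age. In control at 9 weeks 12 basal cells held 274 of 463 chain UMIs. In basal cells with fewer than 5 chain UMIs the chains together were at 17.5 and 12.9 CPM in Zeb1 MSKO, against 13.3 and 14.3 CPM in control. In hormone-sensing cells B2m was at -0.35 and 0.12, H2-Aa at 1.71 and -0.76, H2-Ab1 at 1.01 and -1.30, and Cd74 at 1.42 and -0.70. All 3 class II values there were above 0 in the pair that holds the Zeb1 MSKO library with high Krt14 in luminal cells. In luminal progenitor cells H2-K1 was at -0.62 and 0.12. In fibroblasts B2m was at -0.42 and 0.31, H2-K1 at -0.43 and 0.70, and H2-D1 at -0.45 and 0.41. Fibroblasts at 9 weeks numbered 35 in Zeb1 MSKO and 25 in control.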

How the results depend on the processing

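None of the 8 genes was called between genotypes under any alternative run. Counts of all genes called between genotypes in luminal progenitor, hormone-sensing and basal cells and fibroblasts, which were 0, 0, 0 and 2, became 7, 29, 1 and 2 in DESeq2 and 76, 4, 55 and 79 with no filter on low counts. With age as a replicate block they were 0, 2, 5 and 43. The labels do not say that age marks a shared batch, and the 2 libraries of an age deviated together with r of 0.21 to 0.47 over genes, so the block stands here only. Under the stricter gate fibroblasts had 0. Leaving out 1 library gave 0 to 4 calls in luminal progenitor cells (4 without control at 9 weeks), 0 to 38 in basal cells (38 without Zeb1 MSKO at 9 weeks) and 0 to 145 in fibroblasts (145 without Zeb1 MSKO at 8 weeks, 87 without Zeb1 MSKO at 9 weeks, 0 without control at 8 weeks). With at least 10 leukocytes per library, 4298 genes differed from basal cells (2833 with 20) and 3818 from luminal progenitor cells (2452 with 20). With no filter, 3 and 20 genes had a genotype effect that differed between hormone-sensing cells and basal or luminal progenitor cells. Unthinned, the share of cells with a class II UMI differed by 2.79 points in luminal progenitor and 5.88 points in hormone-sensing cells (0.227 and 1.25 thinned).

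Some uncalled genotype values changed sign. In basal cells H2-Eb1 was at 0.012 with the block and 0.087 with doublets kept, and H2-K1 at 0.029 under the stricter and 0.025 under the broader gate; in hormone-sensing cells H2-Ab1 was at -0.10 with the block. B2m in luminal progenitor over basal cells was at -0.14 under the stricter gate. Without 1 library at a time, basal values ran from -0.11 to 0.058 for H2-K1, -0.73 to 0.31 for H2-Aa, -0.56 to 0.17 for H2-Ab1, -0.40 to 0.43 for H2-Eb1 and -0.69 to 0.33 for Cd74. Hormone-sensing values ran from -0.27 to 0.12 for B2m, -0.17 to 1.28 for H2-Aa, -1.04 to 0.79 for H2-Ab1 and -0.54 to 1.32 for Cd74. H2-K1 ran from -0.72 to 0.12 in luminal progenitor cells, and in fibroblasts B2m from -0.56 to 0.33, H2-D1 from -0.55 to 0.39 and H2-K1 from -0.28 to 0.44. Between classes, B2m ran from -0.068 to 0.12 in luminal progenitor over basal cells, and over hormone-sensing cells H2-D1 from -0.28 to 0.030 and H2-K1 from -0.038 to 0.25. The causes were not tested. The leukocyte fit could not leave out a library, since 1 would remain, and fits of T or NK cells, of B cells, and of endothelial and leukocyte genotype effects were not run, having under 20 cells in a library.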

Other observations

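H2-Oa, which encodes the alpha chain of the class II loading modulator H2-O, differed in level between epithelial classes. It was at 1.59 and 3.36 CPM in luminal progenitor cells of Zeb1 MSKO at 8 and 9 weeks, against 3.15 and 4.14 CPM in control. Hormone-sensing cells had 0 to 0.0555 CPM and basal cells 0 to 0.0874 CPM over the 4 libraries. The lowest luminal progenitor library lay above the highest of both other classes. No test or fold is given, because the gene passed the filter on low counts only through luminal progenitor cells and some libraries are at 0. In leukocytes H2-Oa was at 151 and 147 CPM in Zeb1 MSKO, against 73.3 and 205 CPM in control.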
